A study of Rattus norvegicus with 10 samples.

Results

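The 10 genes described here encode the proteases and receptors that define mast cells: the mast cell proteases Mcpt1, Mcpt2, Mcpt4, Mcpt8, Mcpt9 and Mcpt10, mast cell carboxypeptidase (Cpa3), the alpha and beta chains of the high-affinity IgE receptor (Fcer1a and Ms4a2) and the stem cell factor receptor (Kit). They were picked by name with their behaviour in these livers already known, so their differences between groups are given as a description, with no test. Of the 10, 8 had a probe whose accession led to their symbol, with 9 probes in all, among 13426 named genes tested. Mcpt10 had no probe matched to it. Mcpt2 had no entry of its own in the RefSeq gene table, in which Mcpt1 carries both rMCP-1 and rMCP-2 as older names, and the study's own annotation gives the Mcpt1 probe to Mcpt2.

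Liver RNA came from male Wistar rats, 1 array per rat, in 3 groups taken 24 h after irradiation: 3 unirradiated control rats, 3 rats after total body irradiation (TBI) with 6.5 Gy from a 60Co source, and 4 MASM + TBI rats. MASM, a derivative of the plant alkaloid matrine, had been given into the stomach in water at 30 mg/kg a day on the 3 days before TBI. The dose is that of the array labels, which differs from the paper's text, the ages of the rats are not given in the sources used here, and no array of rats given MASM alone was analysed here. Each value is a Cy3 signal on the log2 scale after quantile normalization, and 1 unit is a doubling. A gene is called detected where its probe was well above background by the scanner software.

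Mast cells arise from bone marrow progenitors, mature in tissues under stem cell factor acting on Kit, and store proteases in granules. Antigen that cross-links IgE on the high-affinity receptor makes them release those granules. Chymases such as Mcpt1, Mcpt4 and Cma1 and the tryptases Tpsab1 and Tpsb2 are serine proteases, Cpa3 is a metalloprotease, and Mcpt8 is in the mouse a product of basophils. In the liver mast cells are few and lie mostly in the portal tracts.

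The chymases and the Mcpt8 type of protease lie in 1 cluster on chromosome 15. In RefSeq order the stretch from Cma1 to Mcpt10 held 26 genes, of which 17 were protein coding, 8 had a probe and 6 were well above background on some array. The promoter windows of 4 members and of Mcpt8l2, a close relative of Mcpt8 (250 bases before to 50 after the start, RefSeq, GRCr8) are shown because this cluster holds near copies. Whether near copies differed in their response was not tested. That of Mcpt1 lies at chr15:33841356-33841655 on the plus strand, that of Mcpt8 at chr15:33769399-33769698 on the plus strand, that of Mcpt9 at chr15:33827180-33827479 on the plus strand, that of Mcpt8l2 at chr15:33718231-33718530 on the plus strand, and that of Cpa3 at chr2:104673188-104673487 on the minus strand. Each is written 5′ to 3′ on the strand of its gene, with matches to the motifs searched (AGATAA and TGATAA, bound by GATA factors, and CACGTG and CACATG, E-boxes of the kind that Mitf binds, on both strands) in capitals.
Mcpt1: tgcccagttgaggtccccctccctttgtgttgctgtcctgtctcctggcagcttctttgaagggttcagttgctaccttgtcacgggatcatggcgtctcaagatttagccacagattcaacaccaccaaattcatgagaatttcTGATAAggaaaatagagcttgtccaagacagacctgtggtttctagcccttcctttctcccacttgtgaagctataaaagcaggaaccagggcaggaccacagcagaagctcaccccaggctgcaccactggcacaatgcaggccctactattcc
Mcpt8: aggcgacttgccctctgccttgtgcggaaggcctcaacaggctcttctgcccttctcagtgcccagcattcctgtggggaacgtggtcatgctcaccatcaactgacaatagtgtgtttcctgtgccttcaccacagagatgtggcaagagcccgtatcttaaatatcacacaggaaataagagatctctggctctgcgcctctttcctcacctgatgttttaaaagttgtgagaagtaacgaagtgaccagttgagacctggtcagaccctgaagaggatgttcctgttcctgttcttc
Mcpt9: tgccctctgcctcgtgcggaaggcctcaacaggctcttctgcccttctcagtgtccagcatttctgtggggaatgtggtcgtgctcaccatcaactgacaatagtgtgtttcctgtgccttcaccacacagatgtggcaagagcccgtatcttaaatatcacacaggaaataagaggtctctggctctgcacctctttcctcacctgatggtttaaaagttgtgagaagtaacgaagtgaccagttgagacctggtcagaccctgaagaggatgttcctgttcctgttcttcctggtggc
Mcpt8l2: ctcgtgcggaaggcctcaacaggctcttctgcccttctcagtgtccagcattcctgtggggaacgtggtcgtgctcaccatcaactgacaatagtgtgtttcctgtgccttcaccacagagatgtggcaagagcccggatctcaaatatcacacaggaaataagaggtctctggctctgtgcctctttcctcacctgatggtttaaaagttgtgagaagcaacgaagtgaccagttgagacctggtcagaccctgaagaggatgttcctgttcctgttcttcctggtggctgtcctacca
Cpa3: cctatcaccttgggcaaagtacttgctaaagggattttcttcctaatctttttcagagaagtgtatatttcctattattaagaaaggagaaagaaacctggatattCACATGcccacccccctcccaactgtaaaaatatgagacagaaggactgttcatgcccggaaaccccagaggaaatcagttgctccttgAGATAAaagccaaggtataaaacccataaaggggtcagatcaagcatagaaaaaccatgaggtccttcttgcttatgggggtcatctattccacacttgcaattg

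The window of Mcpt8 was 94.3% identical to that of Mcpt9 and 91.3% identical to that of Mcpt8l2, and Mcpt9 and Mcpt8l2 were 94% identical. None of the 3 held a motif. The window of Mcpt1 was 88% identical to that of Mcpt1l3 and 82.3% identical to that of Mcpt1l1, neither of which had a probe, and 87.7% and 81.7% identical to those of Mcpt3 and Mcpt4, which had. Identity of the windows of Cpa3, Fcer1a and Kit, which lie outside the cluster, with each other and with those in it ran from 53.7% to 62%. Of the 7 members with a window, Mcpt1 and Mcpt4 held TGATAA, found in 9.03% of 33469 promoters, and Cpa3 and Fcer1a held AGATAA, found in 11.6%. In Mcpt1 TGATAA began 105 bases before the start, and in Cpa3 AGATAA began 55 bases before it. Cpa3 and Fcer1a also held CACATG, found in 14% of promoters. CACGTG, found in 6.42%, was in none of the 7. Whether the probes of these near copies read each other's RNA was not tested, since no transcript or probe sequence was compared.

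As a check of the labels, Cdkn1a, a p53 target that radiation induces, read 8.01 to 8.84 in the control rats, 13.47 to 14.06 after TBI and 12.80 to 13.58 in the MASM + TBI rats. The irradiated and control rats did not overlap, although a figure of the study prints the control and TBI names the other way round. Hepatocyte markers were well above background in every group for all 10 genes listed. Their mean log2 signal was 14.94 to 15.08 in the control rats, 15.09 to 15.43 after TBI and 15.11 to 15.31 in the MASM + TBI rats. Against control 6 of the 10 were higher after TBI and 8 in the MASM + TBI rats. Signal well above background was called at 56.2% to 60.2% of the spots on the control and MASM + TBI arrays and at 64.1% to 70.1% on the TBI arrays. The dimmest signal called well above background was 3.71 to 4.004 on control arrays, 2.54 to 3.16 on TBI arrays and 3.68 to 4.09 on MASM + TBI arrays, so a dim gene was easier to detect on TBI arrays. All control arrays and that of MASM + TBI rat 3 were on slide 1, all TBI arrays on slide 2 and the other 3 MASM + TBI arrays on slide 3. TBI and slide 2 therefore cannot be told apart.

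**Figure D1:**
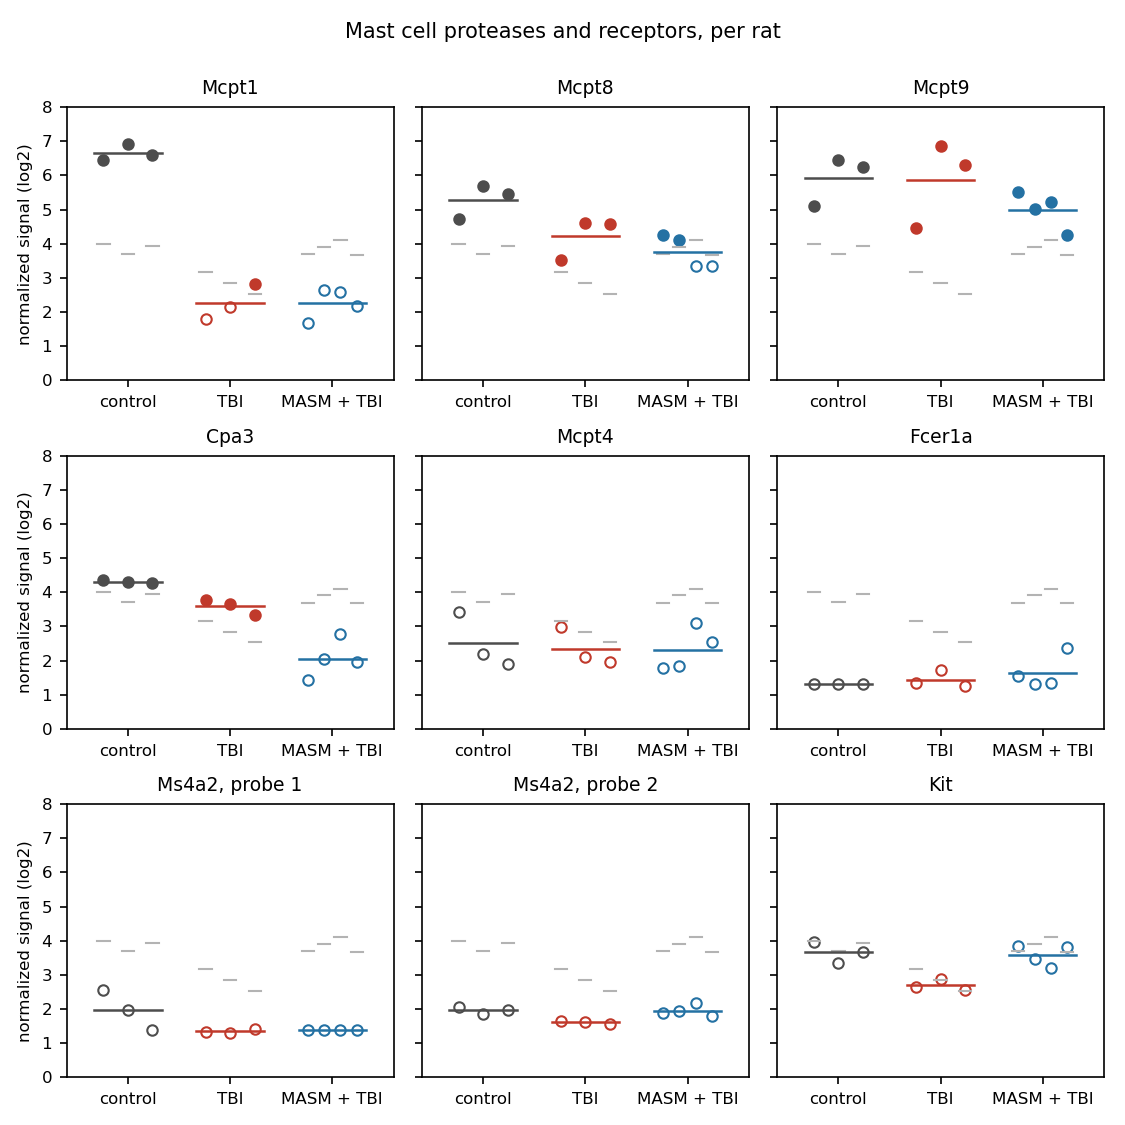
Normalized signal (log2) of each member probe in each rat, in control, TBI and MASM + TBI rats. Filled points were well above background on that array and open points were not, coloured bars are group means, and grey ticks mark the dimmest signal called well above background on that array. Mcpt1 read 6.46 to 6.90 in control rats and 1.68 to 2.82 in the 7 irradiated rats, Cpa3 was above background in the control and TBI rats alone, and Mcpt4, Fcer1a, Ms4a2 and Kit were above background in no rat.

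Mcpt1, a mast cell chymase, was detected in every control liver and in 1 of the 7 irradiated livers. It read 6.46, 6.90 and 6.59 in the control rats, 1.81, 2.14 and 2.82 after TBI, and 1.68, 2.64, 2.58 and 2.16 in the MASM + TBI rats. The control rats stood apart from all irradiated rats, and the TBI and MASM + TBI rats overlapped. Irradiated rats all under the controls were found for 17.5% of all genes after TBI and for 12.1% in the MASM + TBI rats. Among the irradiated rats the Mcpt1 signal was well above background in TBI rat 3 alone.

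The signal of Mcpt1 after TBI was 4.40 log2 units under that of the controls, a difference of -4.40 (SE 0.32, n = 3 and 3) that rests mostly on values below background, since 1 of 3 TBI arrays had it above background. With the normexp background correction it was -0.88. In the MASM + TBI rats, none of which had it above background, it was at least 7.01-fold lower than in the controls, with a measured difference of -4.38 (SE 0.30, n = 4 and 3). MASM + TBI minus TBI was 0.01 (SE 0.30). On slide 1, MASM + TBI rat 3 was 4.07 units under the 3 controls beside it, a difference of -4.07. In bulk liver RNA, fewer cells of a type and less RNA per cell cannot be told apart.

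A further probe, named mast cell protease 1 in the study's annotation and noticed in its list of changed genes, gave a like pattern. Since that list was chosen on these samples, the probe is no independent evidence. It read 5.67, 6.01 and 5.75 in control rats, 1.42, 1.43 and 1.95 after TBI, and 1.46, 1.45, 2.71 and 1.93 in the MASM + TBI rats, above background in the control rats alone. It was at least 7.81-fold lower after TBI and at least 3.92-fold lower in the MASM + TBI rats than in controls. Both bounds rest on the background of the irradiated arrays, and the smaller bound goes with the higher background of the MASM + TBI arrays.

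Cpa3, which trims peptides inside the granules of mast cells, was detected in every control and TBI rat and in no MASM + TBI rat. It read 4.35, 4.29 and 4.27 in the control rats, 3.77, 3.67 and 3.32 after TBI, and 1.44, 2.03, 2.77 and 1.96 in the MASM + TBI rats. The 3 groups did not overlap, with controls highest and MASM + TBI lowest. Over all genes, 17.5% were apart and lower after TBI than in controls. For MASM + TBI the share was 12.1% against control and 7.49% against TBI.

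TBI minus control was -0.72 for Cpa3 (SE 0.29, n = 3 and 3). MASM + TBI minus control was -2.25 (SE 0.27, n = 4 and 3), and since no MASM + TBI array had it above background, the bound was at least 1.38-fold lower. MASM + TBI minus TBI was -1.54 (SE 0.27), for which no bound above 1-fold could be given, because the mean of the TBI rats, 3.59, lay under the mean detection level of the MASM + TBI arrays. With the normexp correction the 3 differences were -0.11, -0.26 and -0.15. Within slide 1, MASM + TBI rat 3 was 1.53 units under the controls, a difference of -1.53, the smallest of the 4 MASM + TBI rats.

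Mcpt8 was detected in every control and TBI rat and in 2 of 4 MASM + TBI rats. It read 4.72, 5.68 and 5.44 in the control rats, 3.53, 4.61 and 4.57 after TBI, and 4.26, 4.11, 3.36 and 3.34 in the MASM + TBI rats. Each irradiated rat was under the lowest control rat, while the TBI and MASM + TBI rats overlapped. The former held for 17.5% of all genes after TBI and for 12.1% in the MASM + TBI rats. The differences were -1.04 for TBI minus control (SE 0.40), -1.51 for MASM + TBI minus control (SE 0.37) and -0.47 for MASM + TBI minus TBI (SE 0.37). Without TBI rat 1 the first was -0.69 and the last -0.83, without TBI rat 2 or TBI rat 3 the last was -0.28 or -0.30, and with the normexp correction the 3 differences were -0.23, -0.30 and -0.07.

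Mcpt9, whose promoter window above is nearly that of Mcpt8, was the only member detected in all 10 rats, and its groups overlapped in all 3 comparisons. It read 5.11, 6.44 and 6.25 in the control rats, 4.47, 6.85 and 6.32 after TBI, and 5.50, 5.01, 5.22 and 4.24 in the MASM + TBI rats. TBI minus control was -0.06 (SE 0.63), MASM + TBI minus control was -0.94 (SE 0.59) and MASM + TBI minus TBI was -0.88 (SE 0.59). The spread among the TBI rats was wide, an SD of 1.25 against 0.72 in the controls. Without TBI rat 1, TBI minus control was 0.65, and without TBI rat 2 it was -0.54. MASM + TBI minus TBI was -1.59 and -0.40 without these rats. With the normexp correction MASM + TBI minus control was -0.31 and MASM + TBI minus TBI was -0.34.

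The receptors and the chymase Mcpt4 were not well above background in any of the 10 rats, so no fold change is given for them. Mcpt4 ran from 1.78 to 3.42, Fcer1a, which binds IgE, from 1.27 to 2.36, and the 2 probes of Ms4a2, which amplifies the receptor's signal, from 1.31 to 2.57 and from 1.57 to 2.17. Kit read 3.95, 3.34 and 3.67 in the control rats, 2.65, 2.87 and 2.54 after TBI, and 3.85, 3.46, 3.19 and 3.80 in the MASM + TBI rats, lowest after TBI but below background throughout. A second probe is annotated as Kit by the study. It went the other way, at 3.57, 3.75 and 2.62 in control rats, where it was below background, and 5.09, 4.85 and 4.14 after TBI, where it was above it. It read 4.13, 3.44, 4.39 and 3.99 in the MASM + TBI rats, above background in 3 of 4. Against the controls that is at least 1.74-fold higher after TBI, while the MASM + TBI rats overlapped with the controls. The 2 probes disagree, and no direction is given for Kit.

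Counted at an adjusted p under 0.05 with a fold of at least 1.5, Mcpt1 and Kit of the 8 measured members were past the limit for TBI against control, where 5.18% of all named genes were (2.74% as lower and 2.44% as higher). For MASM + TBI against control they were Mcpt1 and Cpa3, beside 2.90% of all genes (1.97% as lower and 0.931% as higher). For MASM + TBI against TBI it was Cpa3 alone, beside 0.864% of all genes (0.603% as lower and 0.261% as higher). These counts come from the contrasts through which the genes were picked, so nothing is read from them. The comparisons of TBI and of MASM + TBI with control share the 3 control rats.

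**Figure D2:**
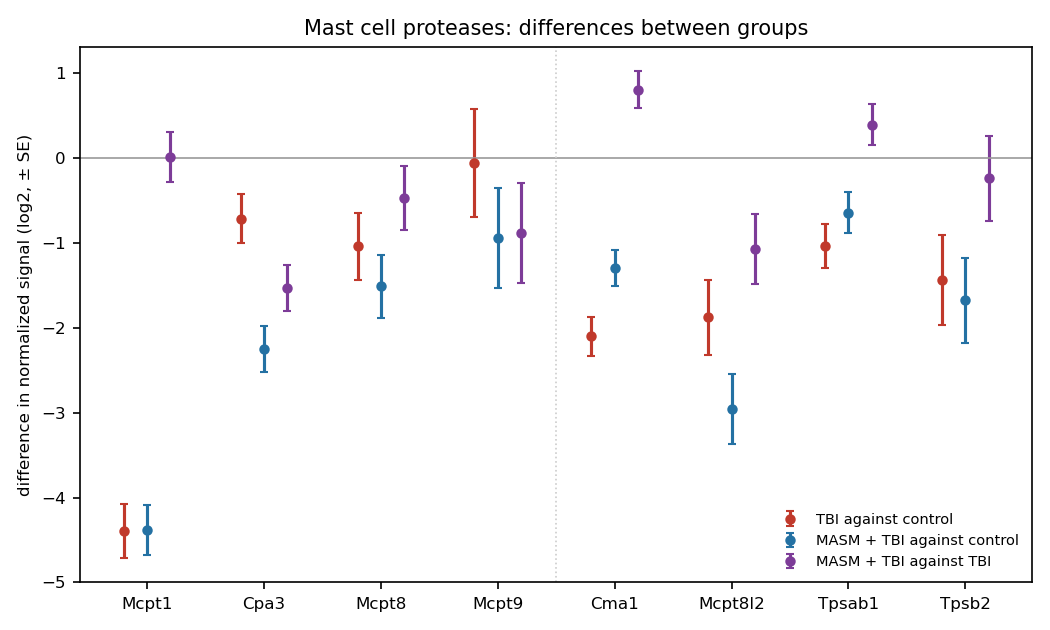
Difference in normalized signal between groups (log2, points, with bars of ± 1 SE) for the 4 members detected in the controls (left of the dotted line) and for 4 other mast cell proteases, in the 3 comparisons. Mcpt1 was at -4.40 and -4.38 against control, with 0.01 between the irradiated groups, while Cpa3 and Mcpt8l2 had their lowest values in MASM + TBI against control.

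Beyond the members, 62 genes of mast cells were listed in 4 groups (other proteases, granule and mediator genes, signalling under the IgE receptor and Kit, and regulators and receptors), of which 55 were measured and 48 were above background on some array. For TBI against control 3 fell (Cma1, Mcpt8l2 and Lat), 1 rose (Cd200r1) and 51 did not pass, with a median difference of 0.06 against -0.01 over all genes. For MASM + TBI against control 3 fell, again Cma1, Mcpt8l2 and Lat, none rose and 52 did not pass, with a median of -0.24 against -0.00067. For MASM + TBI against TBI, limma called 0 of 55 after adjustment and 16 at an unadjusted p under 0.05 with the same fold, and the methods' t-test called 0 and 5, with a median of -0.40 against 0.01. The share of all genes called was 5.18%, 2.90% and 0.864% in the 3 comparisons, and without adjustment 13.1%, 9.18% and 7.82%.

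Of the 11 other mast cell proteases 7 were measured, and 5 were above background on some array and 2 passed the test in each comparison with control. Cma1, the chymase at one end of the cluster, read 4.07, 4.04 and 4.18 in the control rats, 1.88, 2.05 and 2.05 after TBI, and 3.34, 2.30, 2.62 and 2.94 in the MASM + TBI rats by its brightest probe, which was above background in the control rats alone. By this probe it was at least 2.37-fold lower after TBI (difference -2.10, SE 0.23, adjusted p = 0.00283, limma) and at least 1.19-fold lower in the MASM + TBI rats (-1.29, SE 0.22, adjusted p = 0.0200). The MASM + TBI rats all read above the TBI rats, by 0.81 (SE 0.22), but both groups were below background and the difference did not pass (adjusted p = 0.122). A dimmer second probe of Cma1, above background in TBI rat 3 alone, gave -0.68 and -1.06 against control, neither of which passed. Between the irradiated groups it gave -0.38 (SE 0.34), the opposite sign to the brightest probe, so no direction is given there. The call of the main probe after TBI was lost under 2 of 19 alternatives (normexp background correction and the methods' t-test with adjustment added), and that in the MASM + TBI rats under 7 of 20, including without each control rat.

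Mcpt8l2 is a near neighbour of Mcpt8 in the cluster. Within the control rats and within the TBI rats it was lowest in rat 1 and highest in rat 2, as was Mcpt9. Mcpt8l2 read 4.81, 5.41 and 5.29 in the control rats, 2.24, 4.19 and 3.46 after TBI, and 2.52, 2.35, 2.19 and 1.82 in the MASM + TBI rats. It fell after TBI (difference -1.88, SE 0.44, adjusted p = 0.0464) and was at least 2.52-fold lower in the MASM + TBI rats, where it was not above background (-2.95, SE 0.41, adjusted p = 0.00963). In TBI rat 1 it was also below background. With the normexp correction the 2 differences were -0.29 and -0.34. The difference between the irradiated groups was -1.08 (SE 0.41, adjusted p = 0.232). It was -1.60 without TBI rat 1, where it passed (adjusted p = 0.0320, limma), -0.63 without TBI rat 2 and -0.05 with the normexp correction. The call after TBI was lost under 12 of 19 alternatives, among them without any 1 of the control or MASM + TBI rats, and that in the MASM + TBI rats under 3 of 20. Whether Mcpt8l2 differed from Mcpt9 in its response was not tested. Mcpt3, another chymase of the cluster, was above background in 1 control rat alone, at 5.69, with 1.39 and 1.38 in the other 2 controls.

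The tryptases Tpsab1 and Tpsb2, which are stored bound to heparin, were lower in every irradiated rat than in any control rat without passing the test. Tpsab1 read 10.37, 10.19 and 10.30 in the control rats, 9.88, 9.12 and 8.75 after TBI, and 9.36, 9.66, 9.84 and 9.70 in the MASM + TBI rats. Its differences from control were -1.04 after TBI (SE 0.26, adjusted p = 0.0549) and -0.65 in the MASM + TBI rats (SE 0.24, adjusted p = 0.217). The first of these failed under 14 of 19 alternatives and passed under the rest, with adjusted p-values from 0.00831 (without TBI rat 1) to 0.388 (the methods' t-test with adjustment added). Tpsb2 was not above background in TBI rat 2 or in MASM + TBI rats 1 and 3. It gave -1.44 (SE 0.53, adjusted p = 0.153) and -1.68 (SE 0.50, adjusted p = 0.125). The first failed under 18 of 19 alternatives and passed without TBI rat 3 (-2.06, adjusted p = 0.0262), and the second failed under 17 of 20, with adjusted p-values from 0.0395 to 0.313. Without TBI rat 2 the first was -0.90, and with the normexp correction they were -0.27 and -0.32. Groups that did not overlap, with the irradiated rats lower, were found for 17.5% of all genes in TBI against control and 12.1% in MASM + TBI against control, and for 7.49% with MASM + TBI lower than TBI.

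**Figure D3:**
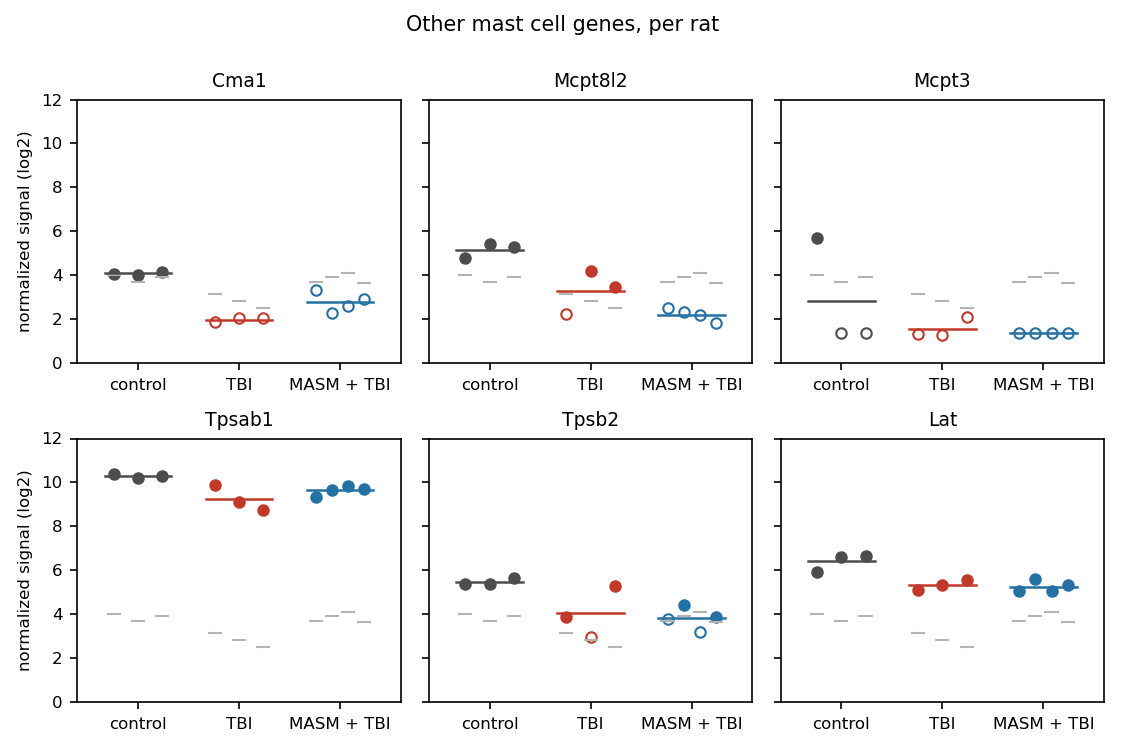
Normalized signal (log2) per rat of 5 other mast cell proteases and of Lat, an adaptor of receptor signalling, with filled and open points, bars and grey ticks as in the plot of the members. Cma1, Mcpt8l2 and Lat were lower in the irradiated rats, Tpsab1 read 10.19 to 10.37 in the control rats and 8.75 to 9.88 in the irradiated rats, and Mcpt3 was above background in 1 control rat.

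Granule and mediator genes gave 0 adjusted calls by limma in the 3 comparisons, and 1, 2 and 4 unadjusted ones. Without adjustment 13.1%, 9.18% and 7.82% of all genes were called. With 75th percentile scaling 1 granule or mediator gene was called higher after TBI than in controls and 1 lower in MASM + TBI than in TBI rats. Hdc, which makes histamine, read 7.20 to 8.21 in the control rats, 7.79 to 8.64 after TBI and 7.72 to 8.16 in the MASM + TBI rats, with a difference of 0.55 for TBI minus control (SE 0.29, adjusted p = 0.299). The 15 genes of this list had a median difference of 0.25 for TBI against control and -0.52 for MASM + TBI against TBI, where all 15 were lower without any passing.

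In the signalling list Lat, the adaptor that links receptor kinases to calcium release in mast cells and T cells, fell in both comparisons. It read 5.94, 6.63 and 6.66 in the control rats, 5.12, 5.32 and 5.56 after TBI, and 5.06, 5.59, 5.04 and 5.32 in the MASM + TBI rats. The differences were -1.08 (SE 0.23, adjusted p = 0.0357) and -1.15 (SE 0.22, adjusted p = 0.0314). Both calls were near the limit, lost under 10 of 19 and 11 of 20 alternatives. Fcer1g, the common gamma chain of Fc receptors that macrophages also express, read 12.51 to 13.63 in control rats, 12.58 to 13.83 after TBI and 11.96 to 12.51 in the MASM + TBI rats, with -1.17 for MASM + TBI minus TBI (SE 0.36, adjusted p = 0.157). Kitlg, the stem cell factor that Kit binds, differed by 0.36 for TBI minus control (SE 0.13, adjusted p = 0.154).

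Of the regulators, Cd200r1, an inhibitory receptor of mast cells and macrophages, rose after TBI. It read 6.67, 7.04 and 6.74 in the control rats, 7.35, 7.89 and 7.53 after TBI, and 7.12, 7.28, 6.92 and 6.90 in the MASM + TBI rats. TBI minus control was 0.78 (SE 0.17, adjusted p = 0.0387), and MASM + TBI minus control was 0.24 (SE 0.16, adjusted p = 0.522). The call after TBI was lost under 10 of 19 alternatives. Gata2, a transcription factor that mast cell progenitors need, differed by -0.05 (SE 0.23, adjusted p = 0.928) for TBI minus control. Mitf had no probe matched to it.

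Some markers of lymphocytes were also lower in the irradiated rats. Of 12 T cell markers 4 passed the test as lower after TBI (Cd2, Cd3e, Cd3g and Cd6, named because they are few) and 3 in the MASM + TBI rats (Cd3e, Cd3g and Cd6), with 9 lower in each comparison. Over all genes 2.74% were called lower after TBI and 1.97% in the MASM + TBI rats. The summed signal of the T cell markers was 854 to 1237 in the control rats, 441 to 711 after TBI and 345 to 598 in the MASM + TBI rats, and 4 of the 12 were above background in no control rat. Cd3e was below background in all 10 rats, so it was not measured as a fall. Of the 7 B cell markers measured, Cd79b fell after TBI, and Cd79b and Fcrla fell in the MASM + TBI rats. After TBI 4 of the 7 were lower and 3 higher, in the MASM + TBI rats all 7 were lower, and with the normexp correction none was called in either comparison. The summed signal of B cell markers was 295 to 322 in the control rats, 196 to 380 after TBI and 166 to 215 in the MASM + TBI rats.

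NK and cytotoxic markers, which include granzymes, relatives of the mast cell proteases, gave 0 adjusted calls by limma and 7 unadjusted ones for MASM + TBI against control, with all 10 lower and a median of -1.45. Without adjustment 9.18% of all genes were called there. With the normexp correction 2 of the 10 were called lower. After TBI alone 7 of 10 were lower, with a median of -0.40. Of 8 neutrophil markers 1 fell, Fcnb, in both comparisons with control, while 5 of 8 were higher after TBI and 4 of 8 in the MASM + TBI rats, with medians of 0.25 and -0.01. The share of all genes called lower was 2.74% and 1.97%. Basophil and eosinophil markers had 5 of 8 genes above background, 0 adjusted calls by limma and 0 unadjusted ones, and medians of -0.14 and 0.03 against control. With 75th percentile scaling 2 were called lower after TBI than in controls. Kupffer cell markers had medians of 0.46 after TBI and -0.22 in the MASM + TBI rats, with 0 adjusted calls by limma and 1 and 0 unadjusted ones. Of all genes 13.1% and 9.18% were called without adjustment. Between the irradiated groups, for which Cpa3 has a measured difference but no bound, the summed signal of Kupffer cell markers was 47267 to 88141 after TBI and 37616 to 46683 in the MASM + TBI rats, and that of NK and cytotoxic markers 1493 to 4914 and 932 to 1799. The part of any of these cells in the signals of Mcpt8, Mcpt9, Cpa3 and Lat was not tested.

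**Figure D4:**
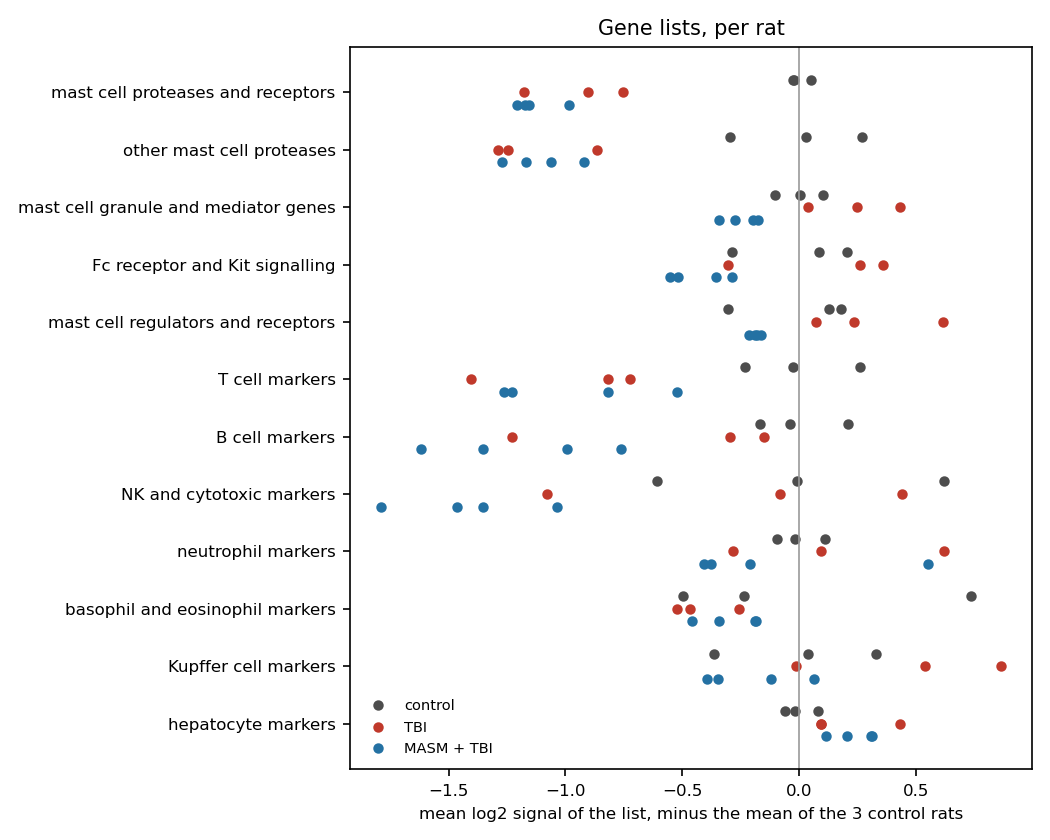
Mean log2 signal of each gene list in each rat, minus the mean of the 3 control rats, for the mast cell lists and for markers of other cell types. Each point is 1 rat. The means of the genes described here (4 of 8 of them above background in no rat), of the other mast cell proteases and of the T cell markers were lower in all 7 irradiated rats than in any control rat, while the granule and mediator genes of the TBI rats overlapped with the controls and those of the MASM + TBI rats lay below them.

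The genes whose signal was most like that of Mcpt1 across the 10 rats, among 12275 probes of named genes above background in at least 1 whole group, were Sh3bp5 (r = 0.987), Agrn (0.978), Kifc1 (0.977), E2f1 (0.977) and Knstrn (0.976). These correlations describe 10 arrays in 3 groups, where any gene high in control rats and low in irradiated ones scores high. E2f1, which drives genes of DNA replication, read 6.87 to 7.11 in the control rats and 4.28 to 5.38 in the 7 irradiated rats. Kifc1 and Knstrn, which act at the mitotic spindle, were above background in the control rats alone.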

How the data were processed

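Liver RNA of 10 male rats (3 control, 3 TBI, 4 MASM + TBI, grouped by the labels) had been labelled with Cy3 and hybridised to Agilent arrays. Each scan had been read with Feature Extraction 10.7.3.1, per the file headers, and the authors deposited background-subtracted intensities on a linear scale, with no normalization across arrays. Control spots and outlier spots were left out, the log2 intensities were quantile normalized as the study's methods state, and the spots of a probe were averaged. Probes were named through their accessions in the RefSeq table, and 16968 of 41012 probes obtained a symbol. A gene was read from its brightest probe.

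Differences came from limma 3.58.1 in R 4.3.3, with 3 group means over all 10 arrays and Benjamini-Hochberg adjustment over 40945 probes. A call needed an adjusted p under 0.05 and a fold of at least 1.5. The fit was tested on simulated data. For a probe detected on none of a group's arrays, a fold is given as a bound, set by the dimmest signal called well above background there. The members, gene lists and tests were chosen with earlier results of these data known. Named are all members, the called genes of the other mast cell lists with Cma1, Tpsab1, Tpsb2, Hdc, Fcer1g, Kitlg, Gata2 and Mitf, the 5 genes most like Mcpt1, and Cdkn1a. Of the other cell types only called genes of short counts are named. These, Mcpt3, Lamp1, Lat2 and the 2 further annotated probes fall outside that rule and were chosen after their values were seen.

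Motifs and promoter identity (global alignment) were computed with Biopython 1.88 in Python 3.11.15, and plots with matplotlib 3.10.9. Nothing says whether the RNA of a group was prepared together, and p-values measure the spread between rats. The number of arrays limits the precision. Protein sequences were not used here. The alternatives were another scaling, a normexp background correction (offset 50, on median pixel signals), the deposited table of values, leaving out dim probes, a model of 2 groups, the methods' t-test, unadjusted p-values, another prior, blocks by replicate number and slide, and each rat left out.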

Additional observations from a re-analysis of the deposited data

Results flagged for a closer look

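Cpa3 differed between the MASM + TBI and TBI rats by -1.54 on the log2 scale (n = 4 and 3), with no overlap between the groups. Over all genes 7.49% were apart in this way. Cpa3 was well above background in the 3 TBI rats and in no MASM + TBI rat, but the dimmest signal so called was 2.54 to 3.16 on TBI arrays and 3.68 to 4.09 on MASM + TBI arrays, and no bound above 1-fold could be given. The call was lost under 12 of 19 alternatives. This gene was picked with that difference known.

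Among 55 probes of mast cell genes in the group of 4 MASM + TBI rats, 2 had a rat far from the other 3, and chance alone puts about 1 group in 20 on such a list. Lamp1, a membrane protein of lysosomes, read 12.2 in rat 1 and 12.35 to 12.37 in the others. Lat2, an adaptor of receptor signalling, read 1.56 in rat 3 and 2.94 to 3.07 in the others, all of them below background.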

How the results depend on the processing

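Of the log2 differences of the 9 member probes and the 2 further annotated probes under the alternatives, 592 moved by less than the spread between rats, 31 moved by more and none changed sign while called. Many of the 592 could not move, since the deposited values were the same as those used here. A model of 2 groups, another prior, leaving out dim probes and leaving out a rat of the third group also leave a difference as it was. The numbers of alternatives given, such as 19 and 20, include these. Calls of Mcpt1, Cpa3 and Kit come from the contrasts through which these genes were picked, so nothing is read from how often they held. The Mcpt1 call against control was lost only for TBI, under the methods' t-test with adjustment added (1 of 19 alternatives), and for MASM + TBI under none of 20. The normexp correction, which adds an offset to every signal, shrank Mcpt1 to -0.88 and -0.91, and Cpa3 to -0.26 (MASM + TBI against control) and -0.15 (MASM + TBI against TBI). The Cpa3 call in MASM + TBI against control was lost under 4 of 20 alternatives (normexp correction, the methods' t-test with adjustment added, replicate number and slide as fixed blocks), and that of Kit after TBI under 12 of 18.

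Counts of calls are given as members and then other mast cell genes, beside 2 and 4 for TBI against control, 2 and 3 for MASM + TBI against control, and 1 and 0 for MASM + TBI against TBI. With 75th percentile scaling other genes were 11 for TBI against control, and MASM + TBI against TBI had 2 and 5. That scaling also called 2 NK and cytotoxic markers lower, and 2 basophil and eosinophil, 2 T cell, 1 B cell and 1 neutrophil markers higher, in MASM + TBI than in TBI rats. With normexp they were 1 and 0, 1 and 0, and 0 members. There Cma1, Mcpt8l2 and Lat kept an adjusted p under 0.05 (limma) in both comparisons with control and missed the fold limit alone. Without dim probes, and with a trended and robust prior, TBI against control had 1 member. With a model of the 2 groups compared, it had 1 and 1, and MASM + TBI against TBI had 0 members. The methods' t-test gave 0 and 0, 1 and 0, and 0 members after adjustment, and unadjusted 7 other genes for MASM + TBI against control, and 2 and 5 for MASM + TBI against TBI. Limma unadjusted gave 4 and 9, 11 other genes, and 2 and 16. With slide as a random block, other genes were 9 and 5 against control, and MASM + TBI against TBI had 2 and 2. As a fixed block, which could be fitted only for MASM + TBI against control, slide left 1 member. Apart from limma unadjusted, the share of all genes called under these alternatives is not given. Nothing is therefore read from these counts, nor from those of the gene lists above under another scaling or the normexp correction.

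Leaving out each rat gave 1 to 2 members and 1 to 8 other genes for TBI against control, 1 to 4 other genes for MASM + TBI against control, and 0 to 1 members and 0 to 9 other genes for MASM + TBI against TBI. The 8 and the 9 both came without TBI rat 1. The Cpa3 call in MASM + TBI against TBI remained when rat 3 of either irradiated group was left out, and was lost without each of the other 8 rats. The cause of these changes was not tested.

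With the replicate number as a block (replicate block), TBI against control had 1 member and 2 other genes, MASM + TBI against control 1 and 0, and MASM + TBI against TBI 0 members. Same-numbered rats deviated together with correlations of -0.13 to 0.17, and for TBI and control each of the 3 rats was most like its own number. With so few rats this cannot settle whether the numbers pair them. Signals near background limit Cpa3, Mcpt8, Cma1, Mcpt8l2 and Tpsb2, and no fold can be given for Fcer1a, Ms4a2, Mcpt4 or the matched Kit probe.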
